A study of Mus musculus with 6 samples.

Results

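The 40 genes described here make up the core autophagy machinery, from the kinase complex that starts an autophagosome to the receptors that bring cargo into it. They were listed by name for what their proteins are known to do, and the rule sets no condition on a measured value, although the list was drawn up with earlier results of these libraries known. All 40 were listed in the deposited table of 56953 genes, and all 40 passed the filter on low values described below. RNA had been sequenced in bulk from cultured MEFs (mouse embryonic fibroblasts, the connective tissue cells that grow out of embryos), kept in DMEM with 10% fetal bovine serum. WT cells gave 3 libraries and the line labelled GαqKO gave 3, which the study describes as Gαq/11 knockout MEFs. Gαq and Gα11, encoded by Gnaq and Gna11, couple cell surface receptors to phospholipase C. The alleles, the age of the embryos and the number of clones behind each line are not given in the sources used here. Genotype goes together with the line of cells in every comparison below, so their effects cannot be told apart.

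Gna11 fell from 2148 ± 29.0 to 452 ± 28.7 normalized counts (SD, n = 3 each; log2 fold change -2.25, limma adjusted p = 9.16e-13). Gnaq itself was not lower but slightly higher, at 1691 ± 48.5 normalized counts in WT and 1926 ± 36.0 in the libraries labelled GαqKO (SD, n = 3 each; log2 fold change 0.19, limma adjusted p = 0.00212). A total over a whole gene also counts reads outside a deleted part, so these levels do not check a deletion, and directions below follow the labels only. Of 10 fibroblast markers, 9 reached 10 normalized counts in at least 3 libraries, with a summed level of 73257.0 to 79175.6 in WT and 56300.1 to 58771.7 in GαqKO. The abundant markers Vim (41785 and 33508 normalized counts on average), Col1a1 (16671 and 5774), Col1a2 (13451 and 10455) and Col3a1 (2710.4 and 2393) were lower in GαqKO. Higher were Pdgfra (19.6 and 2319.7), Dcn (32.1 and 1663), Thy1 (0.7 and 64.9), S100a4 (169.8 and 518) and Pdgfrb (892 and 1046). Fap was at 0 or close to it in both. Most markers of other cell types were low, but in WT Tubb3 (406 on average) and Cdh1 (238) stood above the fibroblast markers Pdgfra, Dcn, Thy1 and S100a4. The epithelial list summed to 255.5 to 284.6 normalized counts in WT, most of it Cdh1, against 9.1 to 20.8 in GαqKO. Of its 5 markers, 1 reached 10 in at least 3 libraries, as counted for each list. Krt8 (17.3 and 0.7 on average) and Krt18 (14.5 and 1.0) were also lower in GαqKO, at low counts. Epcam (3.1 and 4.6) was not lower, and Krt5 was at or near 0. The neural list summed to 423.4 to 493.9 against 110.8 to 128.3, most of it Tubb3, with Sox10 at or near 0 and 2 of 4 markers reaching 10. The endothelial list (1 of 4 markers) summed to 12.6 to 22.4 against 15.0 to 25.4, the leukocyte list (2 of 5, Itgam at 0) to 104.4 to 115.0 against 69.5 to 102.9, the muscle list (1 of 3, Myog at 0) to 10.2 to 18.5 against 10.4 to 16.1, and the adipocyte list (1 of 3) to 0.0 to 3.1 against 24.2 to 29.1. The part of these differences in the results was not tested, and in bulk RNA fewer cells of a type cannot be told apart from less RNA per cell. Library totals ran from 11392429 to 11483486 normalized counts.

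Autophagy encloses part of the cytoplasm in a growing double membrane, the phagophore, which closes into an autophagosome and fuses with a lysosome. The ULK kinase complex starts the process, a class III lipid kinase complex then marks the membrane with the lipid PI3P, and ATG9 and ATG2 supply lipids to it. A pair of ubiquitin-like conjugation systems links LC3 and GABARAP proteins to the membrane, and cargo receptors bind LC3 or GABARAP together with their cargo. Fibroblasts rely on this pathway for basal turnover of proteins and organelles, and embryonic fibroblasts have long served to study it.

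Differences were tested with limma on log2(normalized count + 1) for the 14096 genes that reached 10 normalized counts in 3 or more libraries. A gene was called at a Benjamini-Hochberg adjusted p under 0.05. A log2 fold change is GαqKO minus WT on this scale, on which weakly expressed genes appear to change less than they do, and the thresholds of the study add a log2 fold change over 1 or under -1. Of the 40 core genes, 24 were called (60.0%), against 65.8% of all genes tested. The calls were 8 genes higher in GαqKO, where the share of all genes is 31.8%, and 16 lower, where it is 34.1%. The other 16 genes did not pass the test. With upper quartile scaling the calls became 9 higher and 11 lower, so that 45.0% of the called genes were higher in place of 33.3%, while for all genes this share moved from 48.3% to 55.0%. In 25 of the 40 genes the values of the groups did not overlap, which held for 69.6% of all genes tested.

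The changes were mostly small. The median log2 fold change of the 40 genes was -0.05, and the median size, without regard to sign, was 0.27 against 0.39 over all genes tested. A size over 0.5 was seen in 9 core genes (22.5%) and in 41.6% of all genes. Past the thresholds of the study were Map1lc3a, which was higher, and Optn, which was lower, while 10.2% of all genes were higher and 10.5% lower past them. Without WT replicate 3 the log2 fold change of Map1lc3a was 0.96, and Optn was then the 1 gene past the thresholds. The plot of the log2 fold changes shows the 40 genes by step of the pathway, and the plot of sizes sets them beside all genes.

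**Figure D1:**
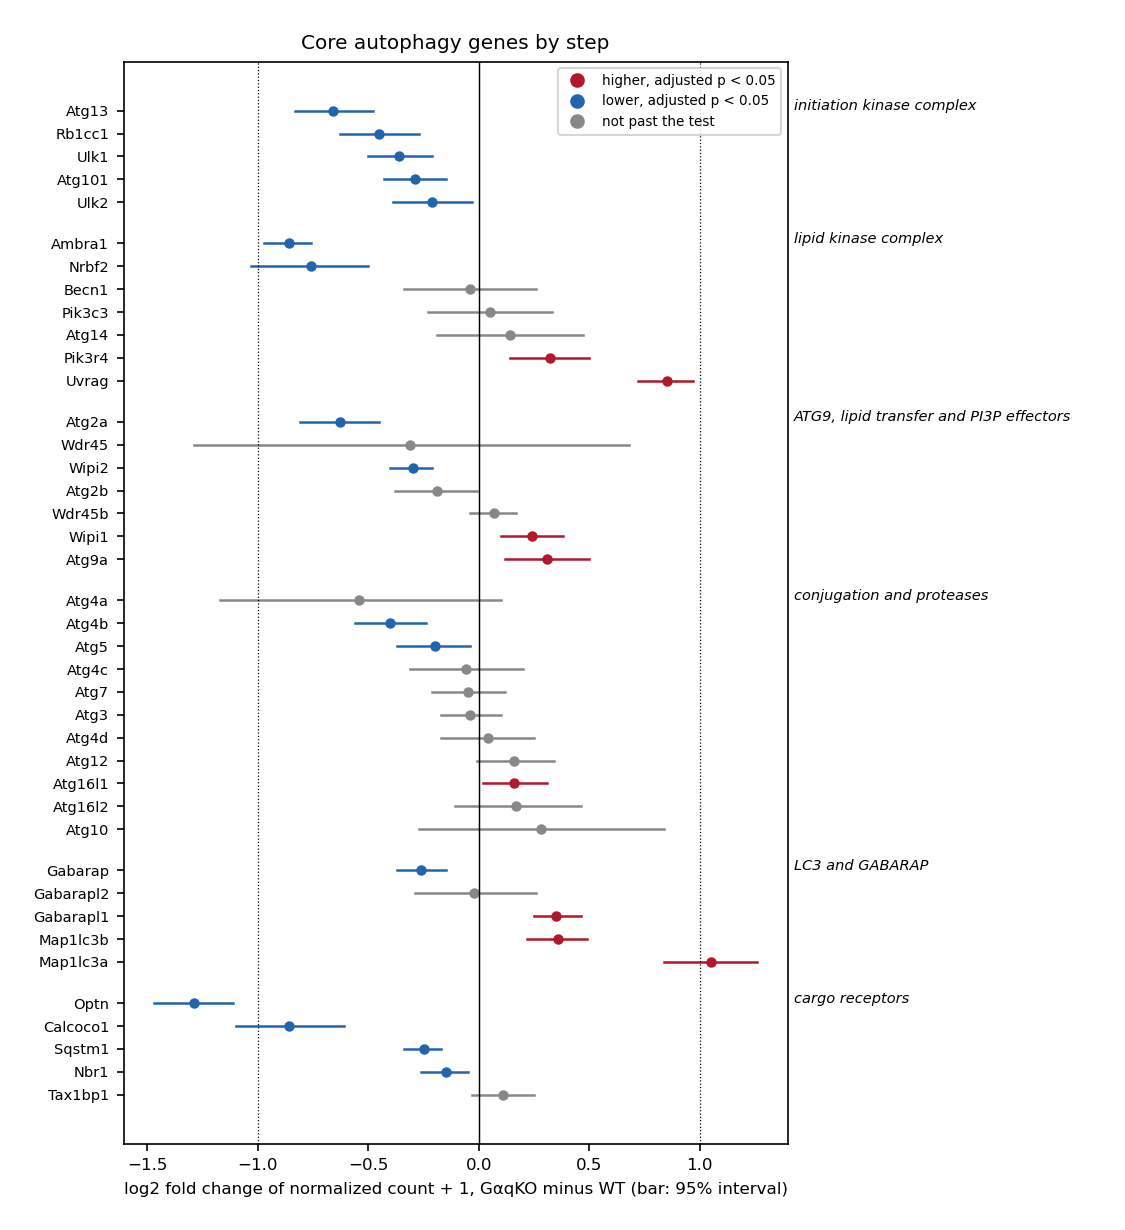
Log2 fold changes of the 40 core autophagy genes (GαqKO minus WT, log2 of normalized count + 1), grouped by step. Points are limma estimates and bars their 95% intervals, coloured by the call at an adjusted p under 0.05, and dotted lines mark -1 and 1. The 5 genes of the initiation complex lie to the left of 0, Ulk2 nearest to it, and Map1lc3a and Optn are the outermost points.

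**Figure D2:**
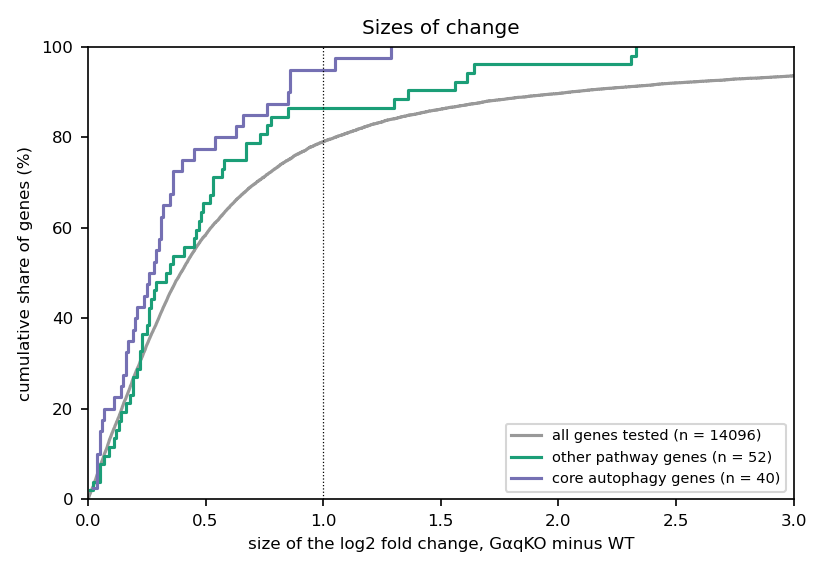
Cumulative share of genes (%) by the size of the log2 fold change without its sign, for the 40 core genes, the 52 tested genes of the lists of other pathway genes and all 14096 genes tested. The horizontal axis ends at 3, and the dotted line marks 1. The line of the core genes runs above that of all genes over most sizes, with a median of 0.27 against 0.39.

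Promoters were read for the core genes because the transcription factors TFEB, TFE3 and MITF, whose levels are given further down, are known to bind the letters CACGTG in autophagy and lysosome genes. The RefSeq promoter table (build GRCm38.p6, 250 bases before to 50 after each gene's start) held 33 of the 40 genes, with 37 promoters. CACGTG, which reads the same on both strands, was found in promoters of 5 genes, 13.5% of the 37 promoters, and in 7.15% of all 32851 promoters in the table. They were Atg7, Atg5, Nrbf2, Atg14 and Atg3, of which Nrbf2 and Atg5 were called lower and the other 3 were not past the test. The letters GTAAACA, bound by FOXO factors, were searched with TGTTTAC for the other strand and were in 0 of the 37 promoters, against 3.65% of all. A match is a description of the letters only. The 250 bases before the start are printed below for 4 genes, 2 that hold CACGTG (in capitals) and 2 that changed most among the core genes in the table without holding it, Uvrag upward and Optn downward. They lie at chr10:67285282-67285531 on the minus strand (Nrbf2), chr16:45158579-45158828 on the plus strand (Atg3), chr7:99141145-99141394 on the minus strand (Uvrag) and chr2:5064118-5064367 on the minus strand (Optn).
Nrbf2: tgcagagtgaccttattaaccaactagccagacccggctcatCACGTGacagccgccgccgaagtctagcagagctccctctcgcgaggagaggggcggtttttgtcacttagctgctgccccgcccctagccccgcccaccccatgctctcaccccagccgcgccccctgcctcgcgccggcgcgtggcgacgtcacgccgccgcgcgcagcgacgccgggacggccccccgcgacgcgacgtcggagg
Atg3: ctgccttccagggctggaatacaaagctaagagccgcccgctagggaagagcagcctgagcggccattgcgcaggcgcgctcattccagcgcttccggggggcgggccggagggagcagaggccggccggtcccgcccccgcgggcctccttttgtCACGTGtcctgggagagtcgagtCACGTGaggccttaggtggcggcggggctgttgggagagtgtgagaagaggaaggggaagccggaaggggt
Uvrag: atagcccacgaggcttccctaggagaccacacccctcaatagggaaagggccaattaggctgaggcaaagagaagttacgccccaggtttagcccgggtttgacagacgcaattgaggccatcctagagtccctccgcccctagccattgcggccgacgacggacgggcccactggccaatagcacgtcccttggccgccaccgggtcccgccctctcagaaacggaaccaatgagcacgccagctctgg
Optn: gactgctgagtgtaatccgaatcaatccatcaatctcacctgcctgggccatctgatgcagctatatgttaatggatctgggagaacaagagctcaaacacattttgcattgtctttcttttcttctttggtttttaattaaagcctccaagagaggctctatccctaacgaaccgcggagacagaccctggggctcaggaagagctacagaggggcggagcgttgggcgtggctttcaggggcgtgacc
In Nrbf2 the letters began 208 bases before the start, and in Atg3 there were 2 copies, 94 and 71 bases before it.

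All 5 genes of the initiation complex were lower in GαqKO, with log2 fold changes from -0.66 to -0.21 and a median of -0.36. In none of the 5 did the groups overlap. Over all genes tested, 34.1% were lower and 31.8% higher, and in 69.6% the groups did not overlap. These shares are the background for the other steps and lists as well. The initiation complex joins the kinases ULK1 and ULK2 to ATG13, FIP200 and ATG101. Atg13, the subunit that bridges the kinase to FIP200, fell most. It had 477, 445 and 465 normalized counts in WT and 304, 269 and 307 in GαqKO, a fold of 0.635 (log2 fold change -0.66, SE 0.08, limma adjusted p = 6.56e-06). The highest GαqKO library was well under the lowest WT library. Of the exon bases of Atg13, 33.1% lie in exons of Arhgap1 and Harbi1, and the strand setting of the counting is not given in the sources used here, so reads of these genes may not be told apart there.

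Rb1cc1, which encodes the scaffold FIP200, had 615, 712 and 692 normalized counts in WT and 552, 466 and 462 in GαqKO, a log2 fold change of -0.45 (SE 0.082, limma adjusted p = 0.000281). Ulk1, the kinase that starts autophagosome formation, had 645, 595 and 639 against 482, 473 and 514, a log2 fold change of -0.36 (SE 0.066, limma adjusted p = 0.000299). Its relative Ulk2 differed least of the complex, with 279.8, 293 and 290.1 normalized counts in WT and 257, 244 and 247 in GαqKO. The log2 fold change of Ulk2 was -0.21 (95% interval -0.39 to -0.03) and its adjusted p of 0.0434 (limma) lay close to the threshold. In 13 of 17 alternative analyses Ulk2 no longer passed, with an adjusted p of up to 0.36, and 4 or 5 of the 5 genes were lower across these alternatives. Atg101, which stabilises ATG13, fell from 749 ± 10.4 to 614 ± 44.0 normalized counts (SD, n = 3 each; log2 fold change -0.29).

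The genes of the lipid kinase complex did not move together. Of 7 genes, 2 were higher, 2 were lower and 3 did not pass the test, with a median log2 fold change of 0.05. The catalytic subunit Pik3c3, which encodes VPS34, was at 122 ± 13.9 normalized counts in WT and 126 ± 2.0 in GαqKO (SD, n = 3 each), and the interval of its log2 fold change ran from -0.23 to 0.33. Becn1, which encodes the scaffold Beclin 1, was at 106 ± 9.1 and 103 ± 5.1 (SD, n = 3 each), with an interval from -0.34 to 0.26. Of its exon bases, 82.6% lie inside the spans of other listed genes and 43.8% in their exons. Pik3r4, the regulatory subunit VPS15, was higher, with 360.2, 339 and 312 normalized counts in WT and 432, 386 and 442 in GαqKO (log2 fold change 0.32, SE 0.084, limma adjusted p = 0.00448). DESeq2 on the 5 libraries with recovered reads did not call it (adjusted p = 0.0967).

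Accessory subunits direct the lipid kinase to its sites, and of these Uvrag was higher and Nrbf2 and Ambra1 were lower. Atg14, which directs the complex to the forming autophagosome, had an interval from -0.19 to 0.47 (log2 fold change 0.14, limma adjusted p = 0.441). Uvrag, which takes the place of ATG14 in the form of the complex that works on endosomes and late autophagosomes, had 444, 442 and 447 normalized counts in WT and 808, 789 and 806 in GαqKO. That was a fold of 1.8 (log2 fold change 0.85, SE 0.058, limma adjusted p = 1.72e-08), and the libraries within each group lay close together. Nrbf2, which binds the ATG14 form, had 214, 225 and 213 normalized counts in WT and 136, 139.9 and 109 in GαqKO, a fold of 0.59 (log2 fold change -0.76, SE 0.122, limma adjusted p = 8.51e-05). Ambra1, which links Beclin 1 to ubiquitin ligases and cell cycle control, had 1437, 1471 and 1508 against 810.4, 811 and 805, a fold of 0.549 (log2 fold change -0.86, SE 0.048, limma adjusted p = 2.3e-09). In Uvrag, Nrbf2 and Ambra1 the groups were far apart, and leaving out any 1 library kept Uvrag between 0.84 and 0.86, Nrbf2 between -0.83 and -0.65 and Ambra1 between -0.88 and -0.85.

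Among the genes for ATG9, lipid transfer and PI3P binding, 2 of 7 were higher, 2 were lower and 3 did not pass, with a median log2 fold change of -0.19. Atg9a, the membrane-spanning lipid scramblase carried on seed vesicles, had 234, 259 and 273 normalized counts in WT and 309, 306 and 334 in GαqKO, a log2 fold change of 0.31 (SE 0.09, limma adjusted p = 0.00776). DESeq2 on 5 libraries did not call it (adjusted p = 0.168). Of its exon bases, 47.0% lie inside the spans of other listed genes and 37.8% in exons of Gm29253 and Ankzf1. ATG2 proteins are the bridges through which lipids flow to the membrane. Atg2a had 526, 496 and 578 normalized counts in WT and 349, 314 and 368 in GαqKO, a fold of 0.644 (log2 fold change -0.63, SE 0.083, limma adjusted p = 1.38e-05). Its paralog Atg2b had 609, 610.1 and 676 against 630.1, 540.0 and 494, where the groups overlap and the adjusted p was 0.0615 (log2 fold change -0.19, limma). Atg2b passed the test in 3 of 17 alternatives, among them without WT replicate 1 (adjusted p = 0.0495) and without GαqKO replicate 1 (0.00763).

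The WIPI proteins read PI3P on the membrane. Wipi1 had 611, 656 and 705 normalized counts in WT and 774, 809 and 745 in GαqKO, a log2 fold change of 0.24 (SE 0.066, limma adjusted p = 0.00538). Wipi2, the one that recruits ATG16L1, had 2055, 2079 and 2052 against 1649, 1635 and 1726, a log2 fold change of -0.30 (SE 0.044, limma adjusted p = 3.38e-05). These paralogs thus went in opposite directions, and neither pair of groups overlaps. Wdr45b, which encodes WIPI3, had 930.4, 946 and 922 normalized counts against 974, 985 and 975, without overlap but with an adjusted p of 0.241 and an interval from -0.04 to 0.17 (limma). Wdr45, which encodes WIPI4, was the lowest of the core genes per kilobase of exon. Its 20.9, 9.7 and 24.4 normalized counts in WT and 14.1, 6.9 and 25.2 in GαqKO leave an interval from -1.29 to 0.68, so that only a large difference could have been seen at such low counts. Of the exon bases of Wdr45, 47.8% lie inside the spans of other listed genes and 11.8% in their exons.

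Few of the conjugation enzymes and ATG4 proteases changed. Of 11 genes, 1 was higher, 2 were lower and 8 did not pass the test, and the median log2 fold change was -0.04. The E1-like enzyme Atg7 (503 ± 22.3 and 488 ± 44.5 normalized counts) and the E2-like enzyme Atg3 (685 ± 35.1 and 667 ± 30.5; SD, n = 3 each) had intervals from -0.21 to 0.12 and from -0.17 to 0.1. Atg10, the E2-like enzyme for ATG12, was low, at 34.4 ± 7.8 and 42.3 ± 10.0, and its interval reached from -0.27 to 0.84. Of the exon bases of Atg10, 43.2% lie inside the spans of other listed genes and 4.1% in their exons. The ubiquitin-like Atg12 was at 681 ± 79.1 and 759 ± 41.7 (limma adjusted p = 0.097), and passed without WT replicate 1 (0.0241) and with upper quartile scaling (0.0429). All 4 of these genes had overlapping groups.

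Atg5, the partner to which ATG12 is joined, was called lower at 445 ± 35.3 and 385 ± 12.0 normalized counts (SD, n = 3 each), with a log2 fold change of -0.20 and an adjusted p of 0.0318 (limma). It lost the call in 8 of 17 alternatives. Atg16l1, which brings the ATG12-ATG5 conjugate to the membrane, had 644, 700.4 and 729 normalized counts in WT and 732, 835 and 758 in GαqKO (log2 fold change 0.16, limma adjusted p = 0.0466), and lost the call in 7 of 17 alternatives. The lowest GαqKO library was only just above the highest WT library. Its paralog Atg16l2 had 165, 122 and 152 against 176, 158 and 158, with an interval from -0.11 to 0.46.

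Of the 4 proteases that trim LC3 and GABARAP and release them from membranes, Atg4b was called. Atg4b, the most active of them in most cells, had 761, 684 and 735 normalized counts in WT and 522, 518 and 609 in GαqKO, a log2 fold change of -0.40 (SE 0.074, limma adjusted p = 0.000291). Atg4a had 40.7, 51.5 and 60.1 against 55.4, 23.1 and 31.2 and the largest log2 fold change in size of the step, -0.54, but its interval ran from -1.17 to 0.1 and the groups overlap. Without GαqKO replicate 1 it was -0.88 and passed (limma adjusted p = 0.0127). Atg4c had 153, 134 and 149.6 against 136, 139.9 and 144, with an interval from -0.31 to 0.2. Atg4d had 235, 248 and 279 against 246, 262 and 274, with an interval from -0.17 to 0.25. Of the exon bases of Atg4d, 65.9% lie inside the spans of other listed genes and 30.2% in their exons. The groups overlap in Atg4a, Atg4c and Atg4d and are apart only in Atg4b.

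The genes of the LC3 and GABARAP proteins, which coat the autophagosome and hold the receptors, rose in 3 of 5 cases, fell in 1 and did not pass in 1, with a median log2 fold change of 0.35. Map1lc3a had 275, 328 and 247 normalized counts in WT and 569, 565 and 616 in GαqKO, a fold of 2.06 (log2 fold change 1.05, SE 0.097, limma adjusted p = 4.05e-07). It was the largest rise among the core genes, and its log2 fold change ran from 0.96 to 1.16 when single libraries were left out. Map1lc3b, whose protein is the usual marker of autophagosomes, had 739, 659.6 and 644 against 851, 865 and 898 (log2 fold change 0.36, SE 0.064, limma adjusted p = 0.000219). Both LC3 genes had all GαqKO libraries above all WT libraries.

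Gabarapl1 had 1424, 1348 and 1474 normalized counts in WT and 1825, 1801 and 1792 in GαqKO, a log2 fold change of 0.35 (SE 0.048, limma adjusted p = 1.92e-05). Of its exon bases, 50.9% lie inside the spans of other listed genes and 31.0% in exons of 1700101I11Rik. Gabarap went the other way, with 2472, 2218 and 2190.4 against 1888, 1958 and 1901, a log2 fold change of -0.26 (SE 0.052, limma adjusted p = 0.000599), and with upper quartile scaling it was -0.19 and no longer passed (adjusted p = 0.0651). Gabarapl2, also known as GATE-16, had 114, 125 and 135 against 128, 118 and 124, with an interval from -0.29 to 0.26. Per kilobase of exon, Gabarap had the highest level of the 40 genes in both groups, 1020 normalized counts per kilobase in WT and 849 in GαqKO. Gabarapl1 followed in GαqKO at 488 and Map1lc3a stood at 443, against 383 and 215 in WT.

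Of the 5 cargo receptor genes, 4 were lower and 1 did not pass the test, with a median log2 fold change of -0.25. Over all genes tested, 34.1% were lower. Optn, which encodes optineurin, a receptor for ubiquitin-coated mitochondria and bacteria, fell most of all core genes. It had 588, 640.2 and 651 normalized counts in WT and 230.1, 275 and 265 in GαqKO, a fold of 0.41 (log2 fold change -1.29, SE 0.084, limma adjusted p = 1.16e-08). Leaving out single libraries gave -1.34 to -1.21. Calcoco1, a receptor for turnover of the endoplasmic reticulum, had 213, 221 and 209.7 against 115, 129 and 111, a fold of 0.551 (log2 fold change -0.86, SE 0.113, limma adjusted p = 1.46e-05). In both genes the highest GαqKO library lay far below the lowest WT library.

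The other receptor genes moved little. Sqstm1, which encodes p62, the receptor for ubiquitin-coated aggregates that is itself degraded by autophagy, fell from 4430.3 ± 39.9 to 3720.2 ± 108 normalized counts (SD, n = 3 each; log2 fold change -0.25, limma adjusted p = 8.43e-05). With upper quartile scaling its log2 fold change was -0.18 and its adjusted p 0.0546. Of its exon bases, 55.7% lie inside the spans of other listed genes and 18.9% in their exons. Nbr1, a receptor that works with p62, was at 1589 ± 47.0 and 1428 ± 51.1 normalized counts (SD, n = 3 each; log2 fold change -0.15, limma adjusted p = 0.0124) and lost its call in 5 of 17 alternatives, the count tests on 5 libraries among them. Tax1bp1, which also binds ubiquitin, was at 915 ± 48.7 and 987 ± 71.8, with an interval from -0.03 to 0.25, and edgeR on 5 libraries called it higher (adjusted p = 0.0376). Across the 17 alternatives, 2 to 4 of the 5 receptor genes were called lower, and 2 with upper quartile scaling.

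**Figure D3:**
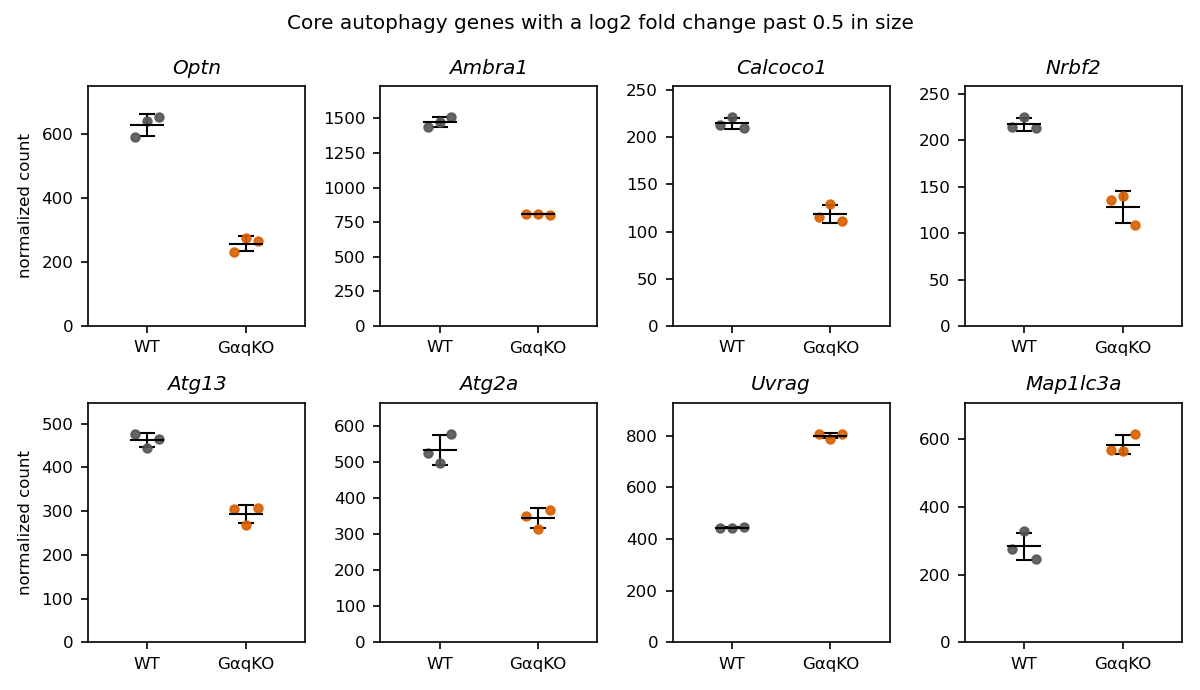
Normalized counts per library of the 8 core genes called at an adjusted p under 0.05 with a log2 fold change past 0.5 in size, 1 panel per gene, each with its own axis from 0. Points are libraries, and horizontal marks with bars are the mean and SD of 3 libraries. In each panel the GαqKO points lie wholly above the WT points (Uvrag, Map1lc3a) or wholly below them (Atg13, Ambra1, Nrbf2, Atg2a, Optn, Calcoco1).

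Because several steps hold paralogs that can partly stand in for each other, the make-up of 8 families was compared within each library, which does not depend on the scaling between libraries. Each share is of the family's normalized counts per kilobase of exon. The length takes all annotated exons of a gene together, not the transcripts in use, and the percentages depend on it. It is 1317 bases for Map1lc3a and 7617 for Map1lc3b. Before division by length Map1lc3b had the higher counts, 681 against 283 in WT and 871 against 584 in GαqKO on average. The exact permutation test over 3 against 3 libraries (two-sided) cannot give a p under 0.1, so no share could pass a threshold of 0.05, and after adjustment over the 8 families the smallest value was 0.16. In 5 families the shares did not overlap between the groups. For the values of single genes this held for 69.6% of all genes tested, and how often it holds for shares in other gene families was not tested.

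Map1lc3a made up 68.2%, 74.2% and 68.9% of the Map1lc3a and Map1lc3b pair in WT and 79.5%, 79.1% and 79.9% in GαqKO, a difference of 9.0 percentage points. Gabarapl1 made up 25.6%, 26.5% and 28.5% of the 3 GABARAP genes in WT and 36.3%, 35.3% and 35.7% in GαqKO, a difference of 8.9 points. Wipi1 made up 35.7%, 37.1% and 39.1% of the pair with Wipi2 in WT and 46.7%, 48.0% and 44.6% in GαqKO, a difference of 9.2 points. Gabarapl1 and Wipi1 were the only genes of their families called higher, whereas both LC3 genes were called higher, Map1lc3a by more on the log2 scale.

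Atg2a made up 61.1%, 59.6% and 60.8% of the ATG2 pair in WT and 50.2%, 51.4% and 57.4% in GαqKO, a difference of -7.5 points. Atg4d made up 23.8% ± 1.5 of the ATG4 family in WT and 29.2% ± 1.6 in GαqKO (SD, n = 3 each), while its own level was not called and that of Atg4b was lower. The groups overlapped for the other 3 families. Ulk1 made up 71.9% ± 1.3 and 69.7% ± 1.1 of the ULK pair, Atg16l2 24.4% ± 3.5 and 24.4% ± 2.2 of the ATG16L pair, and Wdr45 2.0% ± 0.8 and 1.6% ± 0.9 of its pair with Wdr45b (SD, n = 3 each).

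**Figure D4:**
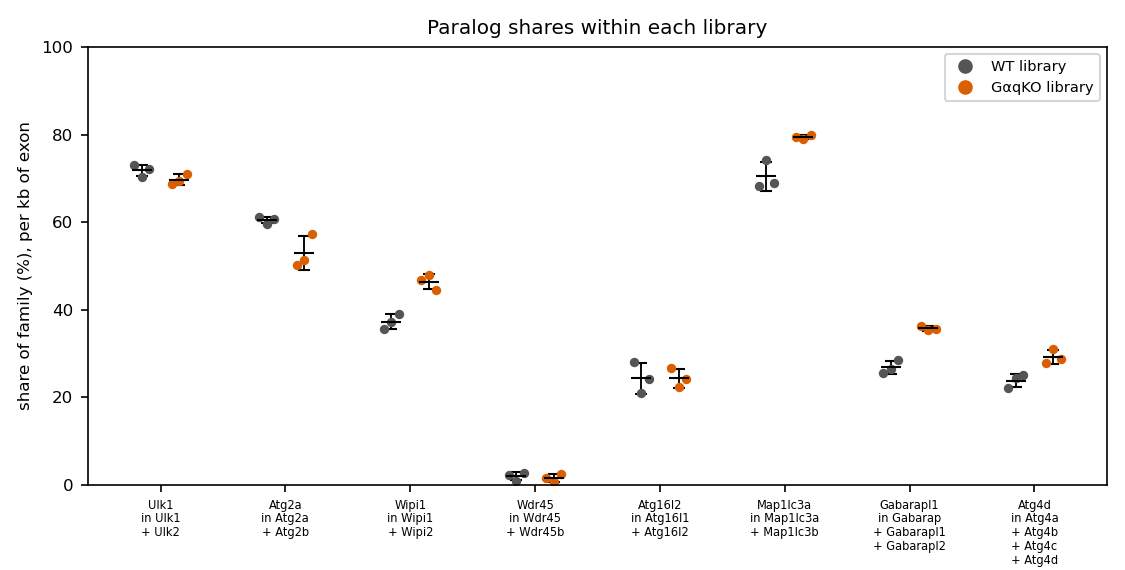
Share of 1 paralog in its pair or family (%), from normalized counts per kilobase of exon in each library, for 8 families. Points are single libraries, and horizontal marks with bars are the mean and SD of 3 libraries. The GαqKO shares lie apart from the WT shares for Atg2a, Wipi1, Map1lc3a, Gabarapl1 and Atg4d and overlap them for Ulk1, Wdr45 and Atg16l2.

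Atg13 and Ambra1 are neighbours in the genome. In GRCm39, Atg13 lies at chr2:91502602-91541186 on the minus strand and Ambra1 at chr2:91560294-91749195 on the plus strand, 19.1 kb apart. Both were lower, and so were most genes around them. Within 1.0 Mb of Atg13, 29 of 36 tested genes were called lower and 1 higher, with a median log2 fold change of -0.56, and around Ambra1 it was 31 of 38 lower and 1 higher, with a median of -0.58. The median over all tested genes of chromosome 2 was 0.03. The windows of these 2 genes largely cover the same stretch, so they are not separate observations.

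Optn lies at chr2:5022703-5068945 on the same chromosome, and 9 of the 12 tested genes around it were lower and 0 higher (median -0.51). Around Calcoco1 on chromosome 15, 24 of 34 were lower and 5 higher (median -0.47, against 0.16 over the chromosome). Map1lc3b was higher among neighbours of which 20 of 31 were higher (median 0.44, against 0.29 over chromosome 8). Rb1cc1 was lower, as were 3 of 3 tested genes around it (median -0.68). A core gene did not always go with its surroundings. Wipi2 was lower, while 3 of 24 genes around it were lower and 8 higher (median 0.12). These genes are examples, and agreement with the surroundings was not counted over the core genes. Around Tax1bp1, 9 of 13 tested genes were lower (median -0.76, against 0.06 over chromosome 6). Around Atg4c, 7 of 8 were lower (median -0.59, against -0.35 over chromosome 4). Neither Tax1bp1 nor Atg4c was called (log2 fold changes 0.11 and -0.06). Around Gabarapl2, 17 of 24 were higher (median 0.38, against 0.29 over chromosome 8), while its own log2 fold change was -0.02. The 24 neighbours of Uvrag had a median log2 fold change of -0.04, and the 38 neighbours of Map1lc3a one of 0.13, with 15 higher and 8 lower. The background over all tested genes is 34.1% lower and 31.8% higher. Whether these stretches have a part in the levels of the core genes was not tested.

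Genes that act around the core machinery were followed in 5 lists of 54 genes, of which 52 entered the test. The lists were compiled by function with earlier results of these libraries known. In all, 15 were higher, 23 lower and 14 not past the test, and their median log2 fold change was -0.15. The share called was 73.1%, beside 65.8% of all genes. Past the thresholds of the study were Bcl2l1, Mitf, Foxo1 and Foxo3, which were higher, and Stbd1, Retreg1 and Prkaa2, which were lower, 7 of 52 genes beside 20.7% of all genes. These 7 stayed past the thresholds in each alternative in which they were tested.

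The list of transcription factors had 5 genes higher and 2 lower, beside 31.8% and 34.1% of all genes tested. The median log2 fold change of the list was 0.29. Mitf, of the family that binds CACGTG, had 41.8, 60.2 and 59.0 normalized counts in WT and 239, 279 and 285 in GαqKO, a log2 fold change of 2.31 (SE 0.16, limma adjusted p = 2.06e-08). Its relatives differed little, with Tfeb, a master regulator of lysosome and autophagy genes, at 234 ± 5.1 and 287 ± 40.6 normalized counts (SD, n = 3 each; log2 fold change 0.29, limma adjusted p = 0.0266) and Tfe3 at 0.11 (limma adjusted p = 0.0422). Tfeb lost its call in 4 and Tfe3 in 11 of 17 alternatives. Foxo1 and Foxo3 encode factors that drive autophagy genes under starvation. Foxo1 had 153, 139.9 and 140.5 against 449.8, 476 and 406 (log2 fold change 1.61, SE 0.095, limma adjusted p = 3.98e-09). Foxo3 had 807, 711 and 789.9 against 2038, 1963 and 1916 (log2 fold change 1.36, SE 0.057, limma adjusted p = 1.14e-10). The groups were far apart for both. Bhlhe40 (log2 fold change -0.46) and Zkscan3, which represses autophagy genes (-0.26), were lower, and Tfec was under the filter.

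Of the 9 kinases and inhibitors, 3 were higher, 5 lower and 1 not past the test, with a median of -0.19. Bcl2l1, whose protein BCL-XL binds Beclin 1 and holds back autophagy as well as cell death, had 889.6, 969 and 922 normalized counts in WT and 2306, 2271 and 2249.7 in GαqKO (log2 fold change 1.30, SE 0.048, limma adjusted p = 3.64e-11). Its relative Bcl2, which also binds Beclin 1, rose as well (log2 fold change 0.53, limma adjusted p = 1.13e-05). Prkaa2, a catalytic subunit of the energy sensor AMPK, was low, with 17.8, 32.1 and 30.5 against 11.3, 4.6 and 10.1 (log2 fold change -1.56, SE 0.387, limma adjusted p = 0.00288). The other AMPK catalytic subunit, Prkaa1, had an interval from -0.07 to 0.5. Tbk1, which phosphorylates optineurin and p62, was lower (log2 fold change -0.78), as was Rubcn (-0.67), which holds back the UVRAG form of the lipid kinase.

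The 16 tested organelle receptors and adaptors had 4 genes higher, 7 lower and 5 not past the test, with a median log2 fold change of -0.17. Stbd1, a receptor for glycogen, had 342, 379.8 and 378 normalized counts in WT and 77.9, 65.9 and 73.5 in GαqKO, a fold of 0.198 (log2 fold change -2.33, SE 0.115, limma adjusted p = 6.14e-10). Retreg1, also known as FAM134B, a receptor of endoplasmic reticulum sheets, had 641, 679 and 604 against 195, 219 and 203 (log2 fold change -1.64, SE 0.08, limma adjusted p = 5.7e-10). Sec62, which serves in recovery from endoplasmic reticulum stress, had 1543, 1489 and 1479 against 2523, 2299 and 2369.5 (log2 fold change 0.67, SE 0.048, limma adjusted p = 2.99e-08). The receptors of the endoplasmic reticulum thus went both ways. Ccpg1, another of them, was listed at 0 in all 6 libraries and did not enter the test. Of its exon bases, 100.0% lie inside the spans of other listed genes and 43.3% in their exons.

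For fusion with the lysosome, 3 of 14 genes were higher, 6 lower and 5 not past the test, with a median of -0.18. Snap29, a SNARE of autophagosome fusion, had 452, 452 and 491 normalized counts in WT and 251, 259 and 262 in GαqKO (log2 fold change -0.85, SE 0.076, limma adjusted p = 3.09e-07). The largest rise in the list was Vps16, a subunit of the HOPS tether (log2 fold change 0.26, limma adjusted p = 0.0253), which lost its call in 6 of 17 alternatives. Of the 6 genes for membrane source and scramblases, 0 were higher and 3 lower, with a median of -0.21. The largest fall was Sec23a, a coat subunit of vesicles from the endoplasmic reticulum, with 236, 178 and 201 against 150.2, 104 and 164 (log2 fold change -0.57, SE 0.165, limma adjusted p = 0.00782).

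**Figure D5:**
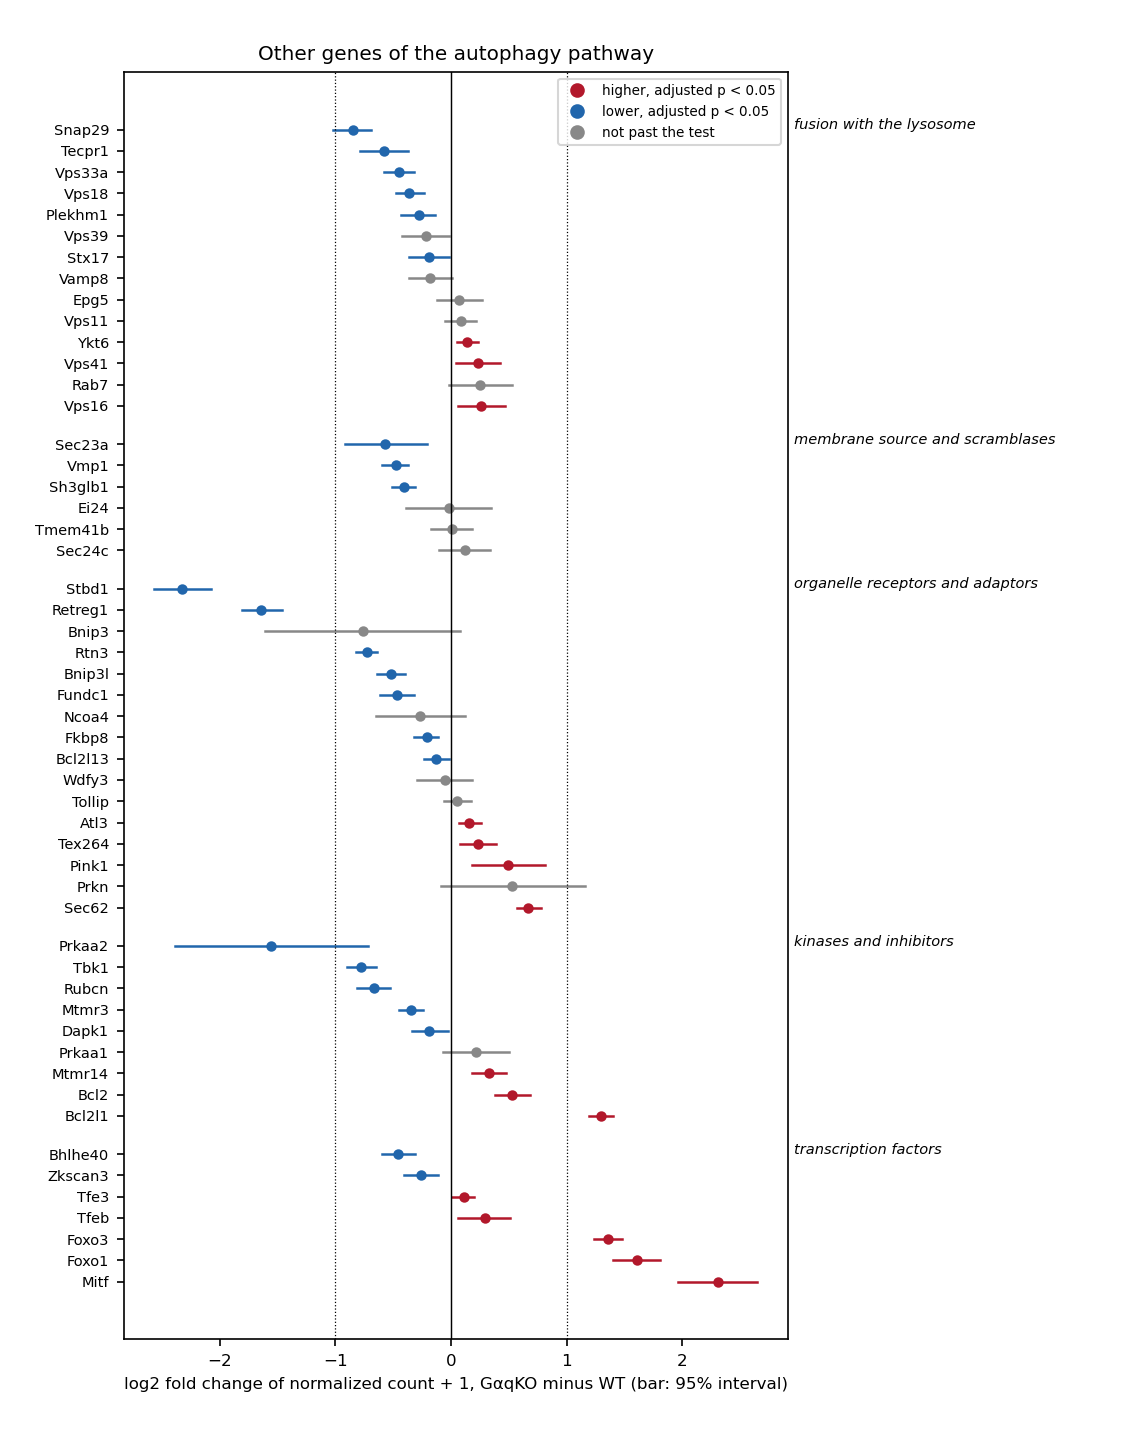
Log2 fold changes of the 52 tested genes in the lists of other pathway genes (GαqKO minus WT, log2 of normalized count + 1), by list. Points are limma estimates and bars their 95% intervals, coloured by the call at an adjusted p under 0.05, and dotted lines mark -1 and 1. Mitf, Foxo1, Foxo3 and Bcl2l1 lie to the right of 1 and Stbd1, Retreg1 and Prkaa2 to the left of -1.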

How the data were processed

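The libraries were poly-A selected, prepared with a stranded kit and sequenced in pairs of 150 bases. Alignment by the authors was to GRCm39 with Rbowtie2, gene counting was with featureCounts on the M32 release of GENCODE, followed by DESeq2, and tool versions are not given in the sources used here. The deposited values are a signal, gene counts divided by 1 size factor per library (normalized counts). In 5 libraries 100.0% of nonzero values were whole multiples of 1 step (tolerance 0.01), which gave 9853000 to 12229175 reads. A unit check did not accept GαqKO replicate 3, so edgeR (4.0.16) and DESeq2 (1.42.0) ran on the other 5 libraries as alternatives only. They were planned for raw counts, and limma (3.58.1, trend in the prior spread, R 4.3.3) on log2(normalized count + 1) of 6 libraries was the main test.

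Symbols, exon lengths and neighbours came from GENCODE M39 (GRCm39), which matched 56310 of 56953 identifiers (98.9%), and overlaps count listed genes only. Members and lists were chosen with earlier results of these data known. Values per library are given for called members past 0.5 in size on the log2 scale, the largest change of each step and the paralogs compared, and some other called members are added. In the other lists, genes past the thresholds and the largest called rise and fall are named, and Tfeb, Tfe3, Zkscan3, Bcl2, Prkaa1, Tbk1, Rubcn, Tfec and Ccpg1 were named after their values were seen. The study states 3 biological replicates per genotype, but no separate cultures are named, so p-values may measure technical spread only. Tested on simulated data for GαqKO against WT, limma recovered 91 of 100 genes changed by 1.5-fold and 100 of 100 changed by 2-fold with 8 false calls among 13999 genes, edgeR 88 and 100 with 8 among 14242, and DESeq2 69 and 97 with 1 among 24706. The simulation changed 200 well expressed genes, evenly up and down, with the same spread set for all genes. In the real data 65.8% of genes were called. The recovery therefore does not cover weakly expressed genes or changes under 1.5-fold, and false calls may differ in the real data. Tables and figures were made in Python 3.11.15 (pandas 2.3.3, numpy 2.4.6, matplotlib 3.10.9, scipy 1.17.1).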

Additional observations from a re-analysis of the deposited data

How the results depend on the processing

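Over 17 alternatives (scaling, filter, pseudocount, prior spread, replicate block, count tests, each library left out), core genes called higher numbered 5 with DESeq2 on 5 libraries against 8 in the main analysis, and 9 with edgeR. Leaving out single libraries gave 7 to 8 higher, 13 to 17 lower and 1 to 2 past the thresholds, and 12 to 13 higher and 20 to 23 lower among the other pathway genes. Atg5, Atg16l1, Ulk2, Nbr1, Pik3r4, Atg9a, Gabarap and Sqstm1 lost their call in at least 1 alternative. Calls were gained by Atg2b in 3 alternatives (lowest adjusted p 0.00763, without GαqKO replicate 1), by Atg12 with upper quartile scaling (0.0429) and without WT replicate 1 (0.0241), by Atg4a without GαqKO replicate 1 (0.0127, log2 fold change -0.88) and by Tax1bp1 with edgeR (0.0376). Signs changed only in genes not past the test: with upper quartile scaling Becn1 came to 0.03, Atg3 to 0.03, Atg4c to 0.01, Atg7 to 0.02 and Gabarapl2 to 0.05 on the log2 scale. With single libraries left out, the log2 fold change ran from -0.11 to 0.01 for Becn1, -0.02 to 0.14 for Pik3c3, -0.73 to 0.13 for Wdr45, -0.01 to 0.11 for Atg4d, -0.12 to 0 for Atg7 and -0.08 to 0.04 for Gabarapl2. The cause of these shifts was not tested.

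Same-numbered WT and GαqKO libraries did not deviate together (correlations -0.045, -0.148 and -0.064), so no pairing was seen in the values. The labels do not say whether libraries of the same number were handled together. With the replicate block, 8 core genes were higher, 15 lower and 2 past the thresholds, and 13 and 21 of the other pathway genes were higher and lower. Low counts limit what can be said of Wdr45, Atg4a, Atg10 and Prkaa2, which stood under 100 normalized counts.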
